A study of Mus musculus with 12 samples.

Results

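The proteasome subunit genes are the mouse genes that encode the parts of the proteasome, its activators, its inhibitor and its assembly chaperones. They were taken by name, as every symbol beginning with Psma, Psmb, Psmc, Psmd, Psme, Psmf or Psmg and followed by a digit. Of 55335 genes in the count table, 55 had such a name, 5 of these were pseudogenes and were left out, and 50 genes remained. Of these, 5 are immunoproteasome genes (Psmb8, Psmb9, Psmb10, Psme1 and Psme2) and 45 are the others. The name also takes in Psmc3ip, a meiotic recombination factor that is not a proteasome part, and Psme2b, a near copy of Psme2.

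RNA sequencing was done on 12 libraries, with n = 3 in each of 4 groups. Tshr f/f mice, which carry a loxP-flanked thyrotropin receptor gene, were the controls, and Tshr MKO mice also carried Cre driven from Lyz2, so that the deletion is aimed at myeloid cells (macrophages, monocytes and neutrophils) and not at hepatocytes. All mice were male. Bone-marrow-derived macrophages (BMDMs) came from mice 6 weeks old by the labels (the methods give a range of ages that begins there), were differentiated over 7 days in M-CSF at 10 ng/mL, and in both genotypes were given thyroid-stimulating hormone (TSH, 1 ng/mL) for 24 h, so no BMDM library without TSH was compared. Livers came from f/f and MKO littermates of the same starting age that had eaten a high-fat diet for 9 weeks, had fasted for 8 h and had received insulin (1.5 U/kg) 5 min before death. The methods describe n = 3 mice in each group as the source of both the liver tissue and the BMDMs, and the labels do not tie a library to a mouse.

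The proteasome is the main protease of the cytosol and nucleus. Its 20S core is a stack of rings, in which α subunits form the gates and β subunits the chamber with the active sites, and the 19S cap, built from ATPases and non-ATPase subunits, binds and unfolds proteins tagged with ubiquitin. Under interferon-γ, cells exchange the catalytic subunits Psmb5, Psmb6 and Psmb7 for Psmb8, Psmb9 and Psmb10 in newly built cores and make the activator PA28 (Psme1 and Psme2), which changes the peptides that are cut for display on MHC class I. Macrophages and other immune cells hold much of this form, whereas hepatocytes hold mostly the constitutive form.

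Libraries held 28962878 to 40954211 counts. In BMDMs the f/f replicate 3 library stood apart, with a scaling factor (TMM) of 0.738 against 0.993 to 1.11 in the other 5, and the BMDM results that turn on it are also given without it below. Tshr itself had 0 to 5 counts in every library, so its level could not serve as a check of the labels. A table of receptor counts printed with the study was compared with the liver libraries over 12 receptors: each of its 6 columns was equal to 1 liver library, and all 6 stood under the genotype heading opposite to the label of that library. The labels were followed here. Were those headings right, the direction of every difference between MKO and f/f livers given below would turn around, the genotype effect in liver minus that in BMDMs would take other values, and the comparison of f/f livers with f/f BMDMs would rest on the MKO livers. The 4 hepatocyte markers (Alb, Ttr, Apoa1 and Cps1) summed to 63134 to 87735 CPM (counts scaled to the size of the library) in liver and to at most 0.0783 CPM in BMDMs. The 6 macrophage markers (Adgre1, Itgam, Cd68, Lyz2, Fcgr1 and Mertk) were all detected in both tissues and summed to 12703 to 14643 CPM in f/f BMDMs and 18152 to 26748 CPM in MKO BMDMs.

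The immunoproteasome genes lie in 2 clusters and 1 single locus. On chromosome 17, inside the MHC, Psmb9 (34181987–34187764, minus strand) and Psmb8 (34197721–34201454, plus strand) sit beside the peptide transporter genes. On chromosome 14 lie Psme1 (55578123–55581529, plus strand) and Psme2 (55587441–55591113, minus strand), and Psmb10 lies on chromosome 8 (105935735–105938444, minus strand). Positions are those of GENCODE M21 on GRCm38. The start sites of Psmb9 and Tap1, which encodes a subunit of that transporter, are 226 bases apart on opposite strands and their promoter windows of 300 bases share most of their sequence. Their annotated exons also share 212 bases on opposite strands, and where counting ignores the strand, reads there cannot be told apart. The same limit holds for other members, among them Psmd9 (1849 bases shared with Gm26745) and Psmb8 (498 with Gm20496). Psmb7 shares 405 bases with Nek6, Psmc3ip 385 with Mlx and Psmd1 252 with Htr2b, all on opposite strands.

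RefSeq promoter windows (GRCm38.p6, 250 bases before to 50 after the start, read on the strand of the gene) were found for 42 of the 50 genes. The 5 immunoproteasome windows are shown because these genes carry the difference from the other members, with those of Psmb5 and Psmb6, the constitutive partners of Psmb8 and Psmb9, for comparison. Capitals mark a match on either strand to the interferon-stimulated response element or ISRE (GAAA, any 2 bases, GAAA, bound by IRF factors), to TTCNNNGAA (the GAS element of interferon-γ responses) or to TGACNNNGC (the core of the antioxidant response element).
Psmb9, chr17:34187281-34187580, minus strand: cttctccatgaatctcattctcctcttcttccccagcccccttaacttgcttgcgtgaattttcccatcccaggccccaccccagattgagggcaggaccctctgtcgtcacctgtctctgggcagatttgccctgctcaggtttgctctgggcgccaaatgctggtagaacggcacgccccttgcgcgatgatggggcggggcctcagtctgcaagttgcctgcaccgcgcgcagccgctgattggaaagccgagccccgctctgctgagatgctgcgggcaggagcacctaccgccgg
Psmb8, chr17:34197945-34198244, plus strand: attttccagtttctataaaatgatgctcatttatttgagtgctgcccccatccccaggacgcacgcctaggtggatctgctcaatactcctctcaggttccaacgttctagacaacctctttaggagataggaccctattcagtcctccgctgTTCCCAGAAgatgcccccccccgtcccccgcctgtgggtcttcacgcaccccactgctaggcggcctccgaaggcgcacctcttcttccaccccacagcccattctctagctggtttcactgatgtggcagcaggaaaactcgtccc
Psmb10, chr8:105938343-105938642, minus strand: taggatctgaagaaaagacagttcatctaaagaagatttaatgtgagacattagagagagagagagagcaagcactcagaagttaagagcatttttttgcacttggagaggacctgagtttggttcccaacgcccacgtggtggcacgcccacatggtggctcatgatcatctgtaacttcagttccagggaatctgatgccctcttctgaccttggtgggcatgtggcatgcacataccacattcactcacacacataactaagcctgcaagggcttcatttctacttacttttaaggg
Psme1, chr14:55578244-55578543, plus strand: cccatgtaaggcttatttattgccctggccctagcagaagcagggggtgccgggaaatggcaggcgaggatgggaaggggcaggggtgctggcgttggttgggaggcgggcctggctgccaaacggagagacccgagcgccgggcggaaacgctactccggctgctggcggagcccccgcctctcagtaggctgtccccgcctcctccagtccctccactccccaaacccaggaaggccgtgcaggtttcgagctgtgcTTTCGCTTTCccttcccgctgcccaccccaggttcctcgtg
Psme2, chr14:55591052-55591351, minus strand: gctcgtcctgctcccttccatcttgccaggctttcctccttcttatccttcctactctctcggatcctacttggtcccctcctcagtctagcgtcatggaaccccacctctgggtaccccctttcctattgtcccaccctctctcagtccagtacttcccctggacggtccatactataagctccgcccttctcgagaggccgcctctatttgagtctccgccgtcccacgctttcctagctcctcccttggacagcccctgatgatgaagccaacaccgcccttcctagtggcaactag
Psmb5, chr14:54617946-54618245, minus strand: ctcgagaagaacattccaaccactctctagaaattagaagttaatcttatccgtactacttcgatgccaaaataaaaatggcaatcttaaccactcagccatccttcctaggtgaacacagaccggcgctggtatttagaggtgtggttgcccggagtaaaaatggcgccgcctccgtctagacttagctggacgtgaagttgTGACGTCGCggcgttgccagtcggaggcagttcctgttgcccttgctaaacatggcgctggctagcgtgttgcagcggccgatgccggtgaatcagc
Psmb6, chr11:70525107-70525406, plus strand: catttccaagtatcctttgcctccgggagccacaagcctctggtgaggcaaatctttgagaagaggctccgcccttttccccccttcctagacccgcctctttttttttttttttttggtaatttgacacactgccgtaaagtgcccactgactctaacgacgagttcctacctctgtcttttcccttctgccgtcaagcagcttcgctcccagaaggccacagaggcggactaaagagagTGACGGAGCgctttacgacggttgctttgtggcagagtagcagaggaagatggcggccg
Genes were counted once, with a match in any of their windows. The GAS letters stood in the Psmb8 window, from 97 to 89 bases before the start, and in 2 of the 37 other members with a window (Psmd2 and Psmg1), against 9.55% of all 27025 genes with a window. The ISRE letters stood in the Psme1 window, 10 to 19 bases into the transcript, and in 4 of the 37 others (Psmb3, Psmd4, Psmd9 and Psmg4), against 3.99% of all genes. TGACNNNGC stood in 0 of the 5 immunoproteasome genes and in 6 of the 37 others, Psmb5 and Psmb6 among them, against 14.0% of all genes. A match is only a run of letters, and a window without one says nothing about binding outside it. Motifs of other factors were also searched. The κB letters (GGG, any 5 bases, CC) were in 3 of the 5 and 21 of the 37, against 53.5% of all genes. CCAAT was in 1 and 14, against 41.1%, and the GC box GGGCGG was in 3 and 20, against 38.2%.

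The first comparison asked how the genotype changes these genes in TSH-treated BMDMs. In MKO BMDMs most proteasome genes had lower counts than in f/f BMDMs, the immunoproteasome genes by more than the rest at the median. Their median log2 fold change was −1.003, that of the other 44 tested members −0.48 and that of all 15372 tested genes 0.01. Of the other members Psmd10 (−1.14), Psme2b (−1.11) and Psma5 (−1.02) had values of the same size. Of 49 tested members (Psmb11 had 0 counts in every library), 47 had a negative log2 fold change. No member passed an adjusted p of 0.05 by the edgeR quasi-likelihood test, nor did any gene of the table, the lowest adjusted p being 0.218. At an unadjusted p under 0.05, 29 of 49 members were lower and 0 higher, against 10.2% and 7.73% of all genes tested. In 37 of 49 members all 3 MKO libraries lay below all 3 f/f libraries, against 14.0% of all genes, and in 0 members all lay above, against 14.8% of all genes. DESeq2 gave an adjusted p under 0.05 to 14 of the 49, against 7.91% of all genes.

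**Figure D1:**
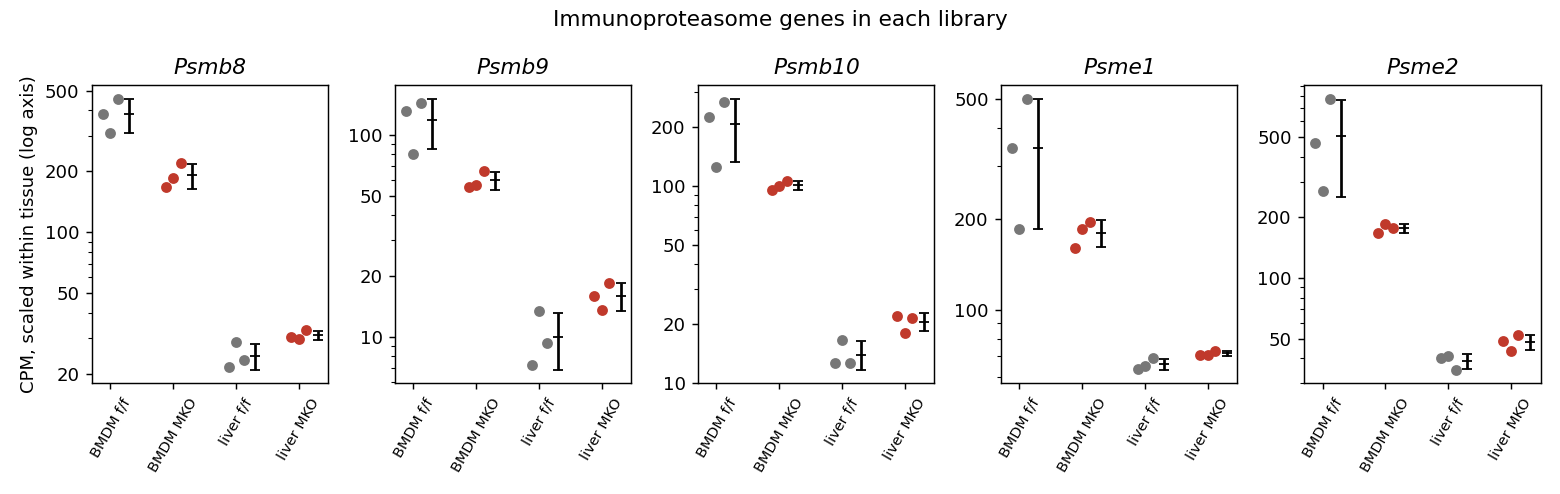
Level in CPM of the 5 immunoproteasome genes in each of the 12 libraries (log axis, different for each gene), with the mean and SD of each group (n = 3) beside the points. Values were scaled within each tissue. In BMDMs the MKO libraries of Psmb8, Psmb9, Psmb10 and Psme2 sit below all f/f libraries and Psme1 overlaps, whereas in liver the MKO libraries of all 5 sit above.

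Psmb8 encodes the inducible chymotrypsin-like subunit β5i. It had 384, 308 and 456 CPM in the f/f BMDM libraries 1 to 3 and 167, 186 and 220 CPM in the MKO libraries. The groups did not overlap, and the log2 fold change was −1.003 ± 0.21 (SE; unadjusted p = 0.00255, adjusted p = 0.218, edgeR). It stayed between −1.14 and −0.86 with any 1 library left out, with an unadjusted p of at most 0.0169.

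Psmb9, which encodes β1i, had 130, 80.0 and 143 CPM in f/f and 55.1, 56.5 and 66.5 CPM in MKO BMDMs. Psmb10, which encodes β2i, had 226, 125 and 268 CPM in f/f and 96.2, 101 and 106 CPM in MKO. Neither gene overlapped between the groups, although f/f replicate 2 was the nearest to MKO in both. The log2 fold changes were −0.99 ± 0.24 and −1.03 ± 0.28 (SE), with adjusted p = 0.218 and 0.221 in edgeR. Without f/f replicate 3 they were −0.83 for Psmb9 and −0.80 for Psmb10.

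Psme2, which encodes PA28β, had the largest difference of all members: 469, 271 and 777 CPM in f/f and 166, 186 and 176 CPM in MKO BMDMs. Its log2 fold change was −1.52 ± 0.38 (SE, adjusted p = 0.218, edgeR), with a range of −1.82 to −1.07 over single libraries left out. Its partner Psme1, which encodes PA28α, had 344, 185 and 501 CPM in f/f and 160, 185 and 196 CPM in MKO. These groups overlapped, because f/f replicate 2 lay at the MKO level, and the log2 fold change of −0.93 ± 0.36 (SE, unadjusted p = 0.0386, edgeR) became −0.56 without f/f replicate 3, with an unadjusted p = 0.101. Psme2b, an intronless copy on chromosome 11 (48945354–48946190), had 62.8, 33.8 and 86.5 CPM in f/f and 26.6, 28.6 and 29.4 CPM in MKO, a log2 fold change of −1.11 ± 0.33, and of −0.78 without f/f replicate 3. Reads of Psme2 and Psme2b may have been split between them in counting, so neither value is certain on its own.

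The f/f BMDM libraries were spread widely, in the same order for most of these genes. Replicate 3 was the highest and replicate 2 the lowest for all 5 immunoproteasome genes. Tnf, an inflammatory cytokine, had 973, 92.5 and 6441 CPM in the same 3 libraries and 66.3, 61.2 and 84.0 CPM in MKO, and Ifng, which encodes interferon-γ, had 19.6, 2.47 and 35.4 CPM and 0.418, 0.427 and 0.771 CPM. Both cytokines thus had the order of the immunoproteasome genes within f/f, and their part in the result was not tested. Without f/f replicate 3, the library with the most Tnf, the medians became −0.83 for the 5 immunoproteasome genes and −0.28 for the other members, and 25 of 49 members were lower at an unadjusted p under 0.05. In that fit 1179 of all 15925 genes tested were lower at that p.

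Of the constitutive 20S subunits, all 7 α ring genes (Psma1 to Psma7) were lower in MKO BMDMs at an unadjusted p under 0.05 and did not overlap between the groups, with log2 fold changes from −1.02 to −0.49. Psma5, the lowest of them, had 109, 81.1 and 171 CPM in f/f and 58.3, 60.3 and 59.2 CPM in MKO (−1.02 ± 0.27, SE). Psma2 had 149, 118 and 204 CPM in f/f and 102.3, 97.6 and 92.7 CPM in MKO (−0.69 ± 0.22). The MKO values of both genes were close together, whereas the f/f values spread again with replicate 3 at the top. Leaving that library out put Psma5 at −0.68 and Psma2 at −0.46, and 6 of the 7 α ring genes were lower at an unadjusted p under 0.05.

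Of the 7 constitutive β ring genes, 3 (Psmb3, Psmb5 and Psmb7) were lower at an unadjusted p under 0.05, and the log2 fold changes ran from −0.96 to −0.16. Psmb5, the chymotrypsin-like counterpart of Psmb8, had 85.6, 93.8 and 126 CPM in f/f and 63.8, 64.6 and 57.7 CPM in MKO (−0.71 ± 0.17, SE). Psmb7, the trypsin-like counterpart of Psmb10, had 74.3, 60.1 and 111 CPM in f/f and 49.3, 57.0 and 51.0 CPM in MKO (−0.64 ± 0.23). Neither overlapped between the groups, and without f/f replicate 3 they were at −0.53 and −0.36. Psmb6, the caspase-like counterpart of Psmb9, had 219, 128 and 456 CPM in f/f and 151, 148 and 113 CPM in MKO. These overlapped, and the log2 fold change of −0.96 ± 0.46 (SE, unadjusted p = 0.0771, edgeR) was −0.33 without f/f replicate 3.

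In the 19S cap, 4 of the 6 ATPase genes (Psmc1 to Psmc6) were lower at an unadjusted p under 0.05, with a median log2 fold change of −0.45, and all 6 had separate groups. Of the 11 non-ATPase subunits 8 were lower at that p, with a median of −0.51, and 10 had separate groups. Psmd11, a scaffold subunit of the lid, had 81.0, 69.4 and 149 CPM in f/f and 60.3, 57.6 and 55.5 CPM in MKO (−0.79 ± 0.29, SE). No gene of the cap overlapped but Psmd8, at −0.30 ± 0.29. Without f/f replicate 3 Psmd11 was at −0.38, the median was −0.26 for the ATPases and −0.28 for the non-ATPase subunits, and 3 of 6 and 7 of 11 were lower at an unadjusted p under 0.05.

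The assembly genes had log2 fold changes from −1.14 to −0.02 in MKO BMDMs, and scaled by total counts 3 of the 7 were above 0. Of the 7 chaperones of the core and cap (Psmg1 to Psmg4, Psmd5, Psmd9 and Psmd10) only Psmd10 was lower at an unadjusted p under 0.05, and the median log2 fold change was −0.17. Psmd10, also known as gankyrin, a chaperone of the cap that is not in the finished particle, had 77.6, 39.7 and 106 CPM in f/f and 32.6, 35.4 and 33.1 CPM in MKO (−1.14 ± 0.34, SE), a difference next in size to that of Psme2 and at −0.80 without f/f replicate 3. The core chaperone Psmg1 had 9.57, 11.5 and 8.37 CPM in f/f and 10.8, 10.5 and 7.40 CPM in MKO (−0.04 ± 0.22). The groups overlapped and the replicates spread more than the means differed.

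The other activators and the inhibitor gave no difference at an unadjusted p of 0.05. Psme3, which encodes PA28γ, the nuclear activator, had 85.0, 78.9 and 104 CPM in f/f and 75.6, 68.5 and 77.0 CPM in MKO (−0.28 ± 0.14, SE, unadjusted p = 0.101, edgeR). Psme4, which encodes PA200, had 136, 129 and 158 CPM in f/f and 122, 115 and 136 CPM in MKO (−0.18 ± 0.15). Psmf1, which encodes the inhibitor PI31, was at 0.10 ± 0.14. Of the remaining members, Psma8, which encodes a testis α subunit, had 16 to 53 counts in BMDM libraries (0.03 ± 0.37), Psmc3ip had 58 to 101 counts (−0.35 ± 0.23), and Psmb11, which encodes the thymus subunit β5t, had 0.

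**Figure D2:**
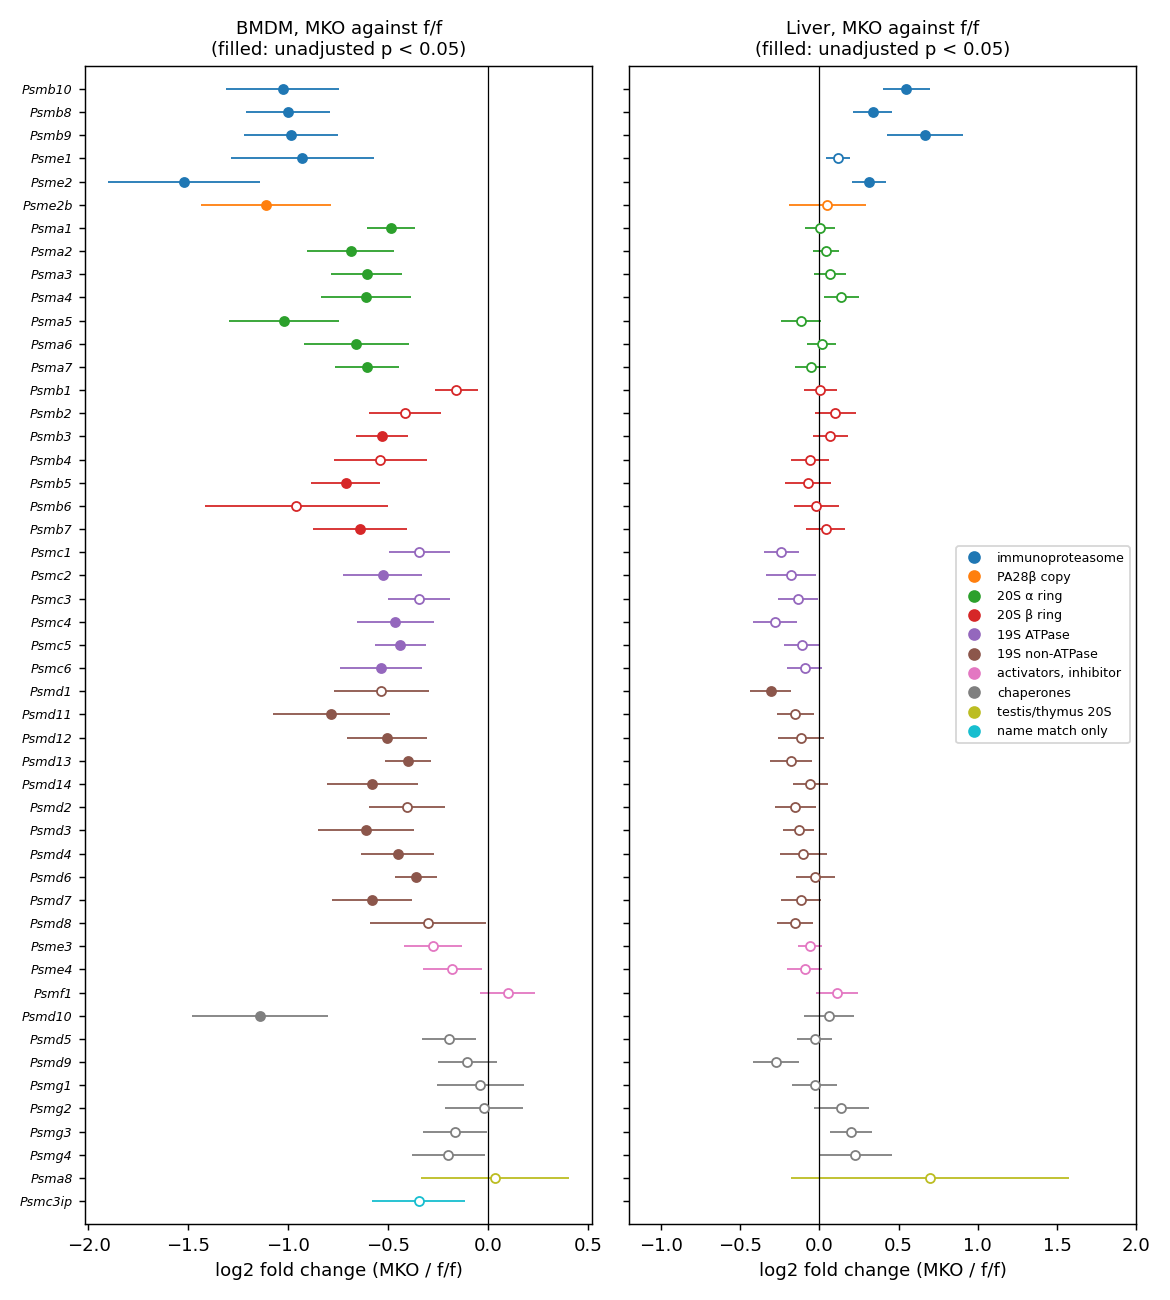
Log2 fold change of MKO over f/f for each tested member, in BMDMs (left, 49 genes) and in liver (right, 48 genes), with its SE; filled points have an unadjusted p under 0.05 and colours give the role. In BMDMs 47 of 49 points lie left of 0 and the immunoproteasome points, Psmd10, Psme2b and Psma5 lie farthest, and in liver the 5 immunoproteasome points lie right of 0 and those of the cap left of it.

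Scaling moved these values together. With total counts in place of TMM factors the median of all genes in BMDMs shifted from 0.01 to 0.17, and 42 of 49 members had a negative log2 fold change, the members' median lying 0.48 below that of all genes. Psmb1, Psmd9, Psme4, Psmg1 and Psmg2 were the 5 whose sign changed. All 5 immunoproteasome genes were lower at an unadjusted p under 0.05 with that scaling too, and 18 members in all, against 1035 of 15372 genes tested. The macrophage marker sums given above did not overlap between the genotypes in BMDMs and were higher in MKO. Marker sums of other cells were also compared, and of these only those of dendritic cells and the Kupffer cell list did not overlap. Dendritic cell markers (Flt3, Ccr7, Xcr1 and Siglech, the last at 0 in f/f) summed to 7.05 to 14.4 CPM in f/f and 3.49 to 4.72 CPM in MKO BMDMs, and neutrophil markers (4 genes) to 7.26 to 48.6 and 4.10 to 9.33 CPM. T cell markers (4 genes) were at 4.95 to 16.0 and 4.32 to 15.0 CPM, and B cell markers (4 genes) at 0.576 to 2.36 and 1.62 to 4.13 CPM. NK cell markers (3 genes) were at 2.69 to 4.49 and 1.44 to 6.17 CPM, endothelial markers (4 genes) at 2.07 to 4.88 and 2.00 to 4.77 CPM, and fibroblast markers (4 genes) at 946 to 2219 and 606 to 1143 CPM. Of the 4 Kupffer cell markers Clec4f was at 0 in both, and the sum was 194 to 443 CPM in f/f and 42.2 to 110 CPM in MKO. Their part in the result was not tested, and in bulk samples fewer cells of a type and less RNA per cell cannot be told apart.

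The second comparison asked the same of whole livers of mice on the high-fat diet. Here the 5 immunoproteasome genes lay higher in MKO livers, at a median of 0.34 on the log2 scale, and the other 43 tested members lay around 0, with a median of −0.06 beside −0.01 for all 15062 genes tested. No member passed an adjusted p of 0.05 in edgeR, nor did any gene, the lowest adjusted p of the table being 0.0634 and of the members 0.334. At an unadjusted p under 0.05, 4 of 48 members were higher (Psmb8, Psmb9, Psmb10 and Psme2) and 1 lower (Psmd1), against 5.27% and 5.18% of all genes tested, so that over all members the counts were near the background. In 6 of 48 members all MKO libraries lay above all f/f libraries, against 9.6% of all genes, and in 0 members all lay below, against 7.74%. The 6 were the 5 immunoproteasome genes and Psmg3.

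Psmb9 had the largest difference of the 5, at 7.28, 13.5 and 9.32 CPM in f/f livers 1 to 3 and 15.8, 13.5 and 18.4 CPM in MKO livers. The groups only just failed to overlap, since f/f replicate 2 and MKO replicate 2 both round to 13.5 CPM. The log2 fold change was 0.67 ± 0.24 (SE, unadjusted p = 0.0278, adjusted p = 0.425, edgeR). Psmb10 had 12.6, 16.6 and 12.6 CPM in f/f and 21.8, 17.9 and 21.4 CPM in MKO, with no overlap and a log2 fold change of 0.55 ± 0.15 (adjusted p = 0.334, edgeR). It was the 1 member of the 5 with an unadjusted p under 0.05 whichever library was left out, the highest being 0.033.

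Psmb8 had 21.6, 28.6 and 23.6 CPM in f/f livers and 30.5, 29.8 and 32.9 CPM in MKO livers, a log2 fold change of 0.34 ± 0.12 (SE). Psme2 had 40.2, 41.2 and 35.0 CPM in f/f and 48.7, 43.7 and 52.0 CPM in MKO (0.31 ± 0.11). Psme1 had 63.7, 65.0 and 69.0 CPM in f/f and 70.9, 70.8 and 73.0 CPM in MKO. Its groups did not overlap, but the difference was small and its unadjusted p was 0.175 (0.12 ± 0.08, edgeR). Psme2b, the copy, was at 3.55, 4.16 and 3.58 CPM in f/f and 3.72, 3.02 and 4.99 CPM in MKO, which overlapped. Without f/f replicate 3, MKO replicate 1 or MKO replicate 3, 1 member in place of 4 was higher at an unadjusted p under 0.05. Over all genes tested, 529 of 15521, 547 of 15383 and 485 of 15552 were higher in those fits, in that order. Without MKO replicate 2, 3 members were higher, all immunoproteasome genes, beside 690 of 15386 genes. Without f/f replicate 1, 4 members were higher, of which 2 were immunoproteasome genes, beside 825 of 15624 genes. Without f/f replicate 2, 4 were higher, all immunoproteasome genes, beside 971 of 15291 genes.

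In the f/f livers replicate 2 had the most Psmb8, Psmb9 and Psmb10. The same library had the highest sum among the f/f livers for 8 of the 10 marker lists, all but those of neutrophils and NK cells and with that of hepatocytes (87735 CPM) included. Macrophage markers summed to 73.7 to 182 CPM in f/f and 68.2 to 194 CPM in MKO livers, Kupffer cell markers (4 genes, all detected) to 138 to 358 and 112 to 312 CPM, and T cell markers to 0.677 to 3.31 and 1.79 to 1.98 CPM. All 3 sums overlapped between the genotypes. Neutrophil sums were 4.25 to 45.2 and 5.70 to 10.6 CPM, NK cell sums 0.575 to 1.09 and 0.615 to 0.81 CPM, B cell sums 1.69 to 4.74 and 2.27 to 3.21 CPM, and dendritic cell sums 1.12 to 1.96 and 0.814 to 1.15 CPM. Endothelial sums were 35.1 to 130 and 73.3 to 105 CPM, and fibroblast and stellate cell sums 25.1 to 201 and 72 to 113 CPM. Their part in the result was not tested.

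The constitutive counterparts did not differ in liver at an unadjusted p of 0.05. Psmb5 had 51.3, 39.0 and 43.8 CPM in f/f and 38.9, 39.0 and 49.8 CPM in MKO, a log2 fold change of −0.07 ± 0.15 (SE). Psmb6 had 88.1, 64.1 and 79.2 CPM in f/f and 76.1, 67.9 and 84.2 CPM in MKO (−0.02 ± 0.14), and Psmb7 had 72.2, 60 and 60.4 CPM in f/f and 62.7, 60.3 and 75.1 CPM in MKO (0.04 ± 0.12). In all 3 the groups overlapped. Psme3 was at 52.0, 50.9 and 50 CPM in f/f and 48.4, 47.5 and 51.0 CPM in MKO, and Psme4 at 117, 92.6 and 109 CPM and 99.7, 97.6 and 101.7 CPM, again with overlap.

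In the cap all 17 genes had a negative log2 fold change in liver, small in size, with medians of −0.16 for the ATPases and −0.13 for the non-ATPase subunits, and all 17 overlapped between the groups. Psmd1, the large scaffold of the base, had 120, 95.3 and 121 CPM in f/f and 84.5, 86.5 and 101 CPM in MKO (−0.31 ± 0.13, SE, unadjusted p = 0.0477, adjusted p = 0.473, edgeR). Psmc4 had 105, 74.7 and 82.8 CPM in f/f and 66.0, 74 and 75.9 CPM in MKO (−0.28 ± 0.14), and Psmc1 had 120, 95.1 and 109 CPM in f/f and 89.8, 87.5 and 97.7 CPM in MKO (−0.24 ± 0.11). Replicate 2 was the lowest f/f library for all 3. Without that library 9 members were lower at an unadjusted p under 0.05 in place of 1. Over all genes tested, 1158 of 15291 were then lower at that p in place of 780 of 15062.

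Psmd9, a chaperone of the ATPase ring, had 50.4, 36.3 and 45.4 CPM in f/f livers and 40.7, 32.3 and 36.2 CPM in MKO (−0.27 ± 0.15, SE). Psmg3, a core chaperone, had 7.92, 7.94 and 7.13 CPM in f/f and 8.86, 8.26 and 9.31 CPM in MKO (0.20 ± 0.13, SE, unadjusted p = 0.181, edgeR). Psma8 had the largest fitted value, 0.70 ± 0.88, on 3 to 31 counts a library. Psmc3ip had 9, 3 and 7 counts in f/f and 9, 18 and 16 in MKO livers and did not pass the filter on low counts, and Psmb11 had 0.

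The third comparison set the immunoproteasome genes against the other members within each library. In BMDMs the mean log2 CPM of the 5 genes lay above that of 43 other members by 2.04, 1.47 and 2.06 in f/f BMDMs and by 1.14, 1.23 and 1.44 in MKO BMDMs. In f/f livers the 5 genes lay below the others, at −1.10, −0.44 and −0.84, and in MKO livers at −0.34, −0.42 and −0.35. CPM is not corrected for exon length, and the 43 include genes with few counts, such as Psma8. The sign of a value thus does not rank the levels of the 2 sets, and only the differences between libraries are read here. In BMDMs every MKO library was below every f/f library, by a small margin between f/f replicate 2 and MKO replicate 3, and in liver every MKO library was above, by a small margin over f/f replicate 2. From the fitted values, the median of the 5 minus the median of the others was −0.53 in BMDMs and 0.39 in liver, and no p is given for it, since the genes had been chosen with results in view.

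**Figure D3:**
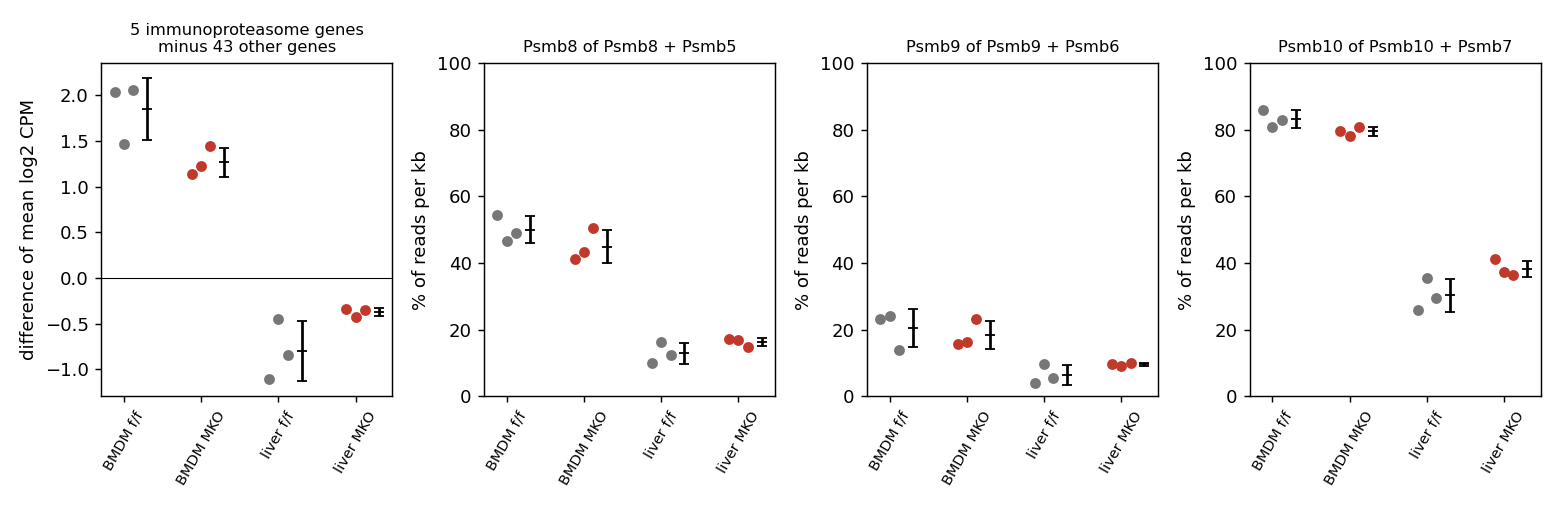
Left: mean log2 CPM of the 5 immunoproteasome genes minus that of 43 other members, for each library with the mean and SD of its group (n = 3). The other panels give the inducible catalytic subunit as a percent of itself plus its constitutive counterpart, in reads per kilobase of exon; the shares are far lower in liver than in BMDMs, and the genotypes overlap except for Psmb10 in liver.

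Each catalytic site can be filled by an inducible or a constitutive subunit, and the inducible share of the mRNA was taken per kilobase of exon. The length is the union of all annotated exons, not that of the transcript made. It was 3.381 kb for Psmb8 and 0.899 kb for Psmb5, and 3.66 and 1.872 kb for Psmb9 and Psmb6. For Psmb10 and Psmb7 it was 1.705 and 3.421 kb. The size of a share and the order of the sites rest on these lengths, whereas overlap of the genotypes at a single site does not. In f/f BMDMs Psmb8 was 54.4%, 46.6% and 49.1% of Psmb8 plus Psmb5, and in MKO BMDMs 41.1%, 43.3% and 50.3%. Psmb9 was 23.4%, 24.3% and 13.8% of Psmb9 plus Psmb6 in f/f and 15.7%, 16.3% and 23.1% in MKO, and Psmb10 was 85.9%, 80.7% and 82.9% of Psmb10 plus Psmb7 in f/f and 79.7%, 78.0% and 80.7% in MKO. All 3 shares overlapped between the genotypes. The lower immunoproteasome counts of MKO BMDMs thus went with lower counts of the constitutive partners, and the balance at any single site did not separate the groups.

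In f/f livers Psmb8 was 10.1%, 16.3% and 12.5% of its pair and in MKO livers 17.3%, 16.9% and 14.9%. Psmb9 was 4.05%, 9.72% and 5.68% in f/f and 9.62%, 9.26% and 10.1% in MKO. Both overlapped through f/f replicate 2. Psmb10 was 25.9%, 35.6% and 29.6% of its pair in f/f and 41.1%, 37.4% and 36.4% in MKO, with no overlap. These are shares of mRNA, not of protein.

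The difference between the tissues in the effect of genotype was tested as an interaction over all 12 libraries. For the 5 immunoproteasome genes the effect was higher in liver than in BMDMs by a median of 1.58 on the log2 scale, against 0.44 for the other 44 members tested and 0.01 for all 17246 genes. All 5 had an unadjusted p under 0.05, and 19 of 49 members did in the higher direction and 0 in the lower, against 7.42% and 7.12% of all genes tested. None passed an adjusted p of 0.05 in edgeR, against 0.0058% of all genes in the lower direction and 0.0% in the higher, the lowest being 0.121 for Psmb8 (1.34 ± 0.25, SE). Psme2 was at 1.84 ± 0.42 (adjusted p = 0.146, edgeR), Psmb9 at 1.65 ± 0.37, Psmb10 at 1.58 ± 0.34 and Psme1 at 1.05 ± 0.39. These sizes and their order hold for the liver labels as given: with the opposite liver genotypes each would be smaller and the order would differ. DESeq2 gave an adjusted p under 0.05 to 6 members, 4 of them immunoproteasome genes, against 4.64% of all genes, and edgeR gave it to 9 members, all 5 immunoproteasome genes included, when BMDM f/f replicate 2 was left out, a fit in which 1.49% of all genes were higher and 0.435% lower at that threshold. Without BMDM f/f replicate 3 the median was 1.34 for the 5 genes and 0.22 for the other members, 17 members were higher at an unadjusted p under 0.05 and 0 passed the adjusted threshold. In that fit 1038 of all 17753 genes were higher at that unadjusted p. All 7 α ring genes were also higher at an unadjusted p under 0.05, and 0 of the 17 cap genes. The f/f and MKO libraries of each tissue enter only that tissue's effect, but a single estimate of spread was shared.

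The levels of the members in the controls of the 2 kinds of sample differed most for the immunoproteasome. Between f/f livers and f/f BMDMs, edgeR placed 13 members lower and 17 higher in liver (adjusted p under 0.05), against 32.7% and 36.6% of all genes tested. All 5 immunoproteasome genes were lower, with a median log2 difference of −2.82, and the other members had a median of 0.20. Psmb8 was 8.43-fold lower in liver (−3.08 ± 0.19, SE, adjusted p = 2.07e-07, edgeR), Psmb10 8.04-fold, Psme2 7.08-fold, Psmb9 6.35-fold and Psme1 2.83-fold lower. Of the other members Psme2b (−3.13 ± 0.31), Psmc3ip (−2.58 ± 0.45) and Psmd10 (−2.45 ± 0.30) were far lower in liver. Tissue, culture, TSH, diet, insulin and age go together in this comparison and cannot be told apart.

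**Figure D4:**
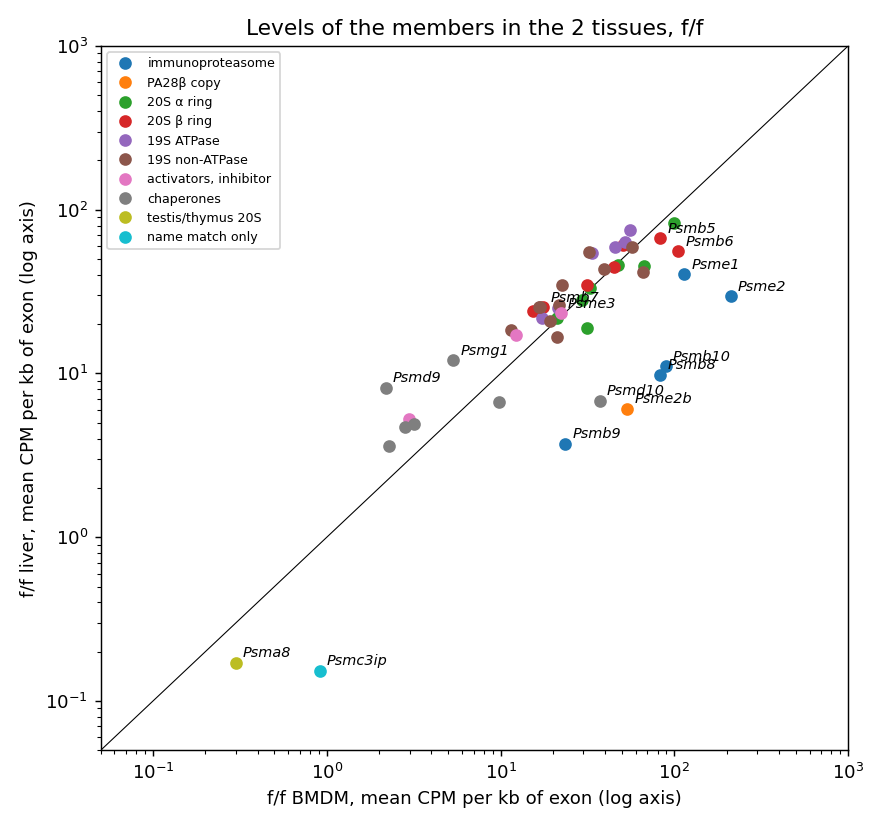
Mean level in f/f liver against mean level in f/f BMDMs, in CPM per kilobase of exon on log axes, for the 49 members detected, with the line of equal levels. Psmb8, Psmb9, Psmb10, Psme2, Psme2b, Psmd10 and Psmc3ip lie far below the line, Psme1 lies less far below it, and most constitutive subunits lie near it.

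Of the 7 chaperones 5 were higher and 2 (Psmd10 and Psmg4) lower in f/f liver at an adjusted p under 0.05 in edgeR. Psmd9 was higher in f/f liver by 1.91 ± 0.15 (SE, adjusted p = 1.4e-06, edgeR) and Psmg1 by 1.17 ± 0.18 on the log2 scale, and both stayed positive with total counts only (1.06 and 0.33). Of the constitutive catalytic subunits, Psmb7 was higher in liver at 0.53 ± 0.20 and Psmb6 lower at −0.92 ± 0.37, both past the adjusted threshold, and Psmb5 was at −0.30 ± 0.16. With total counts only Psmb7 was at −0.23. For most constitutive subunits the direction rests on the scaling. With total counts only, the median of all genes shifted to −0.79, 34 members lay lower and 1 lay higher past that threshold, and all 5 immunoproteasome genes were lower with either scaling. Relative to the median of all genes the immunoproteasome median was −2.86 with TMM and −2.75 with total counts.

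Per kilobase of exon, Psme2 had the highest level of all members in f/f BMDMs, at 211 ± 107.2 CPM per kb (SD, n = 3), followed by Psme1 at 114 ± 53.1, Psmb6 at 105 ± 67.0, Psma6 at 99.1 ± 36.6, Psmb10 at 88.9 ± 32.1, Psmb8 at 83.0 ± 16.7 and Psmb5 at 83.0 ± 17.4. These neighbours did not differ by more than their spread. In f/f livers Psma6 was first, at 82.4 ± 5.20 CPM per kb, then Psmc1 at 75.7 ± 8.12 and Psmb5 at 67.2 ± 8.58, and Psme1 (40.4 ± 1.99), Psme2 (29.7 ± 2.49), Psmb10 (11.1 ± 1.90), Psmb8 (9.85 ± 1.54) and Psmb9 (3.71 ± 1.20) stood at ranks 16, 20, 37, 38 and 46 among 50. By this measure the α and β ring subunits ran in f/f BMDMs from 15.4 ± 0.32 CPM per kb for Psmb1 to the value of Psmb6. The divisor is the union of annotated exons, 4.595 kb for Psmb1 and 1.872 kb for Psmb6. This range and the order of the genes thus rest in part on annotated length.

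The genes that act with the proteasome were taken from lists. Of 13 class I antigen processing genes, all tested in BMDMs, 13 had a negative log2 fold change in MKO BMDMs (median −0.66), 8 were lower at an unadjusted p under 0.05 and 0 higher, beside 10.2% and 7.73% of all genes. When f/f replicate 3 was left out, 6 were lower and the median was −0.49. Tap1, the divergent neighbour of Psmb9, had 428, 253 and 630 CPM in f/f and 165, 153 and 183 CPM in MKO (−1.39 ± 0.34, SE). Tap2, its partner in the transporter, was at −1.37 ± 0.36 and Nlrc5, the transactivator of class I genes, at −1.29 ± 0.45, with overlap. With f/f replicate 3 left out these 3 were at −1.03, −0.97 and −0.78. The order of the f/f libraries for Tap1 was that of the immunoproteasome genes.

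Of 18 interferon and TNF input genes 17 were tested in BMDMs (Ifnb1 was not), and 8 were lower and 1 higher at an unadjusted p under 0.05, with a median of −0.55, beside the same 10.2% and 7.73%. Ifng (−5.14 ± 1.01, SE) and Tnf (−5.15 ± 1.45) had the largest values, followed by Jak2, a kinase of the interferon-γ receptor, with 303, 268 and 855 CPM in f/f and 82.9, 86.6 and 98.3 CPM in MKO (−2.41 ± 0.48). Without f/f replicate 3 Ifng was at −4.35, Tnf at −2.93 and Jak2 at −1.68, the list median was −0.38, and 6 were lower and 1 higher. The higher gene was Ifngr1, which encodes the interferon-γ receptor chain itself. Of 23 partners and regulators of the proteasome 22 were tested (Paaf1 was not), and 7 were lower and 2 higher at that p, with a median of −0.35, which became −0.16 with 5 lower and 2 higher without f/f replicate 3. Nfe2l1, the factor that raises transcription of proteasome genes when the protease fails to keep up, had 326, 297 and 423 CPM in f/f and 193, 203 and 150 CPM in MKO (−0.94 ± 0.21). Ddi2, the protease that activates the Nfe2l1 protein, had 113, 147 and 74.2 CPM in f/f and 191, 170 and 219 CPM in MKO (0.80 ± 0.27), and Ublcp1, a phosphatase of the proteasome, was at −0.83 ± 0.26, or −0.51 without f/f replicate 3. No tested gene on the 3 lists had an adjusted p under 0.05 in edgeR.

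In liver the lists gave few calls. Of the 13 class I genes 0 had an unadjusted p under 0.05 and the median was 0.06, with H2-T23, a non-classical class I gene, at 0.24 ± 0.11, B2m, which encodes β2-microglobulin, at 0.21 ± 0.13 and Tapbpl, a peptide editor, at −0.21 ± 0.19. Of 15 tested inputs 0 did, with a median of 0.05 (Ifng, Ifnb1 and Tnf were not tested). Ifngr1 was at −0.39 ± 0.23 and Stat2, a factor of type I interferon signalling, at 0.20 ± 0.20. With single liver libraries left out Tapbpl ran from −0.37 to −0.08, Ifngr1 from −0.58 to −0.15 and Stat2 from 0.08 to 0.38. Of 22 partners 1 was lower and 3 were higher, beside 5.18% and 5.27% of all genes. Ubqln2, a shuttle for ubiquitinated proteins, was at −0.41 ± 0.10 (SE) and Akirin2, which carries proteasomes into the nucleus, at 0.34 ± 0.12. Both had separate groups, and neither passed an adjusted p of 0.05 in edgeR.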

How the data were processed

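The unit of the values is the read count per gene, in a table of whole-number counts deposited by the authors for 12 libraries. A strand-specific kit and an Illumina NovaSeq instrument were used. The submitters' processing notes list FastQC 0.11.2, STAR, StringTie and mm10 without saying what each was used for, and the paper names Skewer for trimming. The counting program and its strand setting are not given in the sources used here.

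Counts were tested with the quasi-likelihood test of edgeR 4.0.16 (robust, TMM factors, filterByExpr) in R 4.3.3, fitted on the whole table with Benjamini–Hochberg adjustment over all genes tested in that comparison (threshold 0.05). The SE is the size of a log2 fold change over the square root of F. BMDMs and livers were fitted apart, and the interaction and the comparison of tissues used all 12 libraries. DESeq2 1.42.0 was an alternative. CPM used the TMM factors of 1 tissue, and CPM per kb used those of all 12 libraries and the union of GENCODE M21 exons. The scripts were tested on simulated data. Other steps ran in python 3.11.15 (pandas 2.3.3; numpy 2.4.6; plots in matplotlib 3.10.9, from the tables).

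The members and all lists were chosen with earlier results of these data known. Named were the 5 immunoproteasome genes, Psmb5, Psmb6, Psmb7, Psme3 and Psme4, the 5 other members with the largest absolute log2 fold change in each genotype comparison, members removed by the filter, and the 3 largest of each list, of which some are not reported here. Other members named with values (Psmb1, Psmd8, Psmf1, Psmg1, Psmg3 and those of the level order) were chosen after their values were seen. Depth was 28962878 to 40954211 counts, and 3 counts correspond to 0.0733 to 0.104 CPM. The alternatives were RLE, upper-quartile and total-count scaling, a filter at a mean of 50 counts or none at all, DESeq2, a replicate block, all 12 libraries in 1 fit, the first letter of the liver sample name as a covariate, and each library left out. The immunoproteasome was also reduced to Psmb8 and Psmb9, and the others to those with a mean of at least 50 counts. An alternative chosen after seeing the data left Psme2b, Psma8, Psmb11 and Psmc3ip out of the other members.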

Additional observations from a re-analysis of the deposited data

Results flagged for a closer look

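For 5 members all MKO libraries lay below all f/f libraries in BMDMs and above them in liver: the genotype effect in liver minus that in BMDMs was 1.34 for Psmb8, 1.65 for Psmb9, 1.58 for Psmb10, 1.84 for Psme2 and 0.37 for Psmg3 on the log2 scale. They are listed because the groups lay in opposite order in the 2 tissues, as did 1.22% of the 13244 genes tested in both tissues in this direction and 1.38% in the reverse one. This holds only for the liver labels as given: a printed receptor table has the liver genotypes the other way round, and with those the 5 genes would lie below f/f in both tissues. The interaction was tested in edgeR, where the first 4 had an unadjusted p between 0.000266 and 0.00119 and no adjusted p under 0.05, and Psmg3 had an unadjusted p of 0.0629. Groups of 3 libraries are too small for a test of single outlying libraries.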

How the results depend on the processing

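The numbers of members lower or higher at an unadjusted p under 0.05 depended on settings, whereas the 5 immunoproteasome genes kept a negative median in BMDMs and a positive one in liver in every setting run. In BMDMs 29 members were lower, 18 with total counts only and 17 with the replicate block, and the number at an adjusted p under 0.05 was 0, 14 in DESeq2 and 2 with all 12 libraries in 1 fit. Leaving out 1 library gave 14 to 36 lower (14, 15 and 15 without MKO replicates 1, 2 and 3), 0 to 0 higher, 0 to 0 at an adjusted p under 0.05, and a difference of the immunoproteasome from the rest of −0.67 to −0.41. In liver the number lower was 1, 2 with upper-quartile scaling, total counts only or the replicate block, and 0 with all 12 libraries in 1 fit or the sample letter as a covariate; leaving out 1 library gave 0 to 9 lower (9 without f/f replicate 2), 1 to 4 higher, 0 to 0 at an adjusted p under 0.05 and a difference from the rest of 0.33 to 0.59. For the interaction, DESeq2 gave 6 members at an adjusted p under 0.05 in place of 0, and leaving out 1 library gave 0 to 9 (9 without BMDM f/f replicate 2) and 14 to 26 higher at an unadjusted p. Between the f/f tissues total counts gave 34 lower and 1 higher, and leaving out 1 library 9 to 15 lower and 12 to 23 higher. Over all genes tested, the numbers lower at an unadjusted p under 0.05 moved as well. In BMDMs they were 1567 of 15372, and 1035 of 15372 with total counts only. They were 2299 of 15654 without BMDM f/f replicate 2 and 731 of 15884 without BMDM MKO replicate 1. In liver they were 780 of 15062, and 1158 of 15291 without f/f replicate 2. The cause was not tested. Of the single genes, the Psme4 log2 fold change in BMDMs turned to 0.011 with total counts only. In liver Psmb6 turned to 0.015 with total counts only and 0.0045 with the sample letter as a covariate. Leaving out 1 liver library gave −0.198 to 0.030 for Psmb5 (turned without f/f replicate 1), −0.141 to 0.076 for Psmb6 (turned without f/f replicate 1 or MKO replicate 2) and −0.062 to 0.124 for Psmb7 (turned without f/f replicate 2, f/f replicate 3 or MKO replicate 3).

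No pairing of the samples by replicate number was seen, but 3 same-numbered pairs a tissue are too few to decide it. The deviations of same-numbered libraries correlated at 0.15, 0.02 and 0.10 in BMDMs and at −0.04, 0.24 and −0.01 in liver. Those of differently numbered libraries ran from −0.22 to 0.17 in BMDMs and from −0.37 to 0.35 in liver. The replicate block changed no other count by more than 1.5 times. With 3 libraries a group, differences of the size of the SEs given are not detectable.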
